A study of Arabidopsis thaliana with 18 samples.

Results

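The genes described here are 229 of 37861 nuclear genes of Arabidopsis thaliana. Their RNA was higher in wild-type (WT) seed coats and endosperms after 48 h in the cold, and not to the same extent in WT seeds that stayed warm and aged as long. Seeds of ecotype Col plants growing at 22 °C were sampled at 11 days after pollination (DAP) or at 13 DAP. Plants at 11 DAP were also moved to 13 °C and sampled after 6 h or 48 h (the study's text gives 10 °C for the cold). The myb107-2 mutant, a SALK T-DNA insertion allele of the transcription factor gene MYB107, was sampled at 11 DAP and after 48 h cold only, and no 13 DAP group of it was analysed. Each of the 6 groups had 3 libraries, each made from seeds of 4 siliques from 3 or 4 plants, dissected to seed coat and endosperm. The labels say no more of how the libraries of a group differ, so the p-values measure the spread between these samples.

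The members were chosen by measured values, those of the WT libraries at 11 DAP, at 13 DAP and after 48 h cold. Counts were divided by the total of the nuclear genes of a library to give CPM (counts scaled to 1000000 per library), and L is the log2 of a group's mean CPM plus 1. A member had an L at least 1 higher after 48 h cold than at 11 DAP, and an L at 13 DAP that was between 1.5 below and 0.3 above that at 11 DAP. Its lowest WT 48 h cold library also lay above all 11 DAP and 13 DAP WT libraries. Of 735 genes with the first property, 344 had WT 48 h cold libraries separated in this way, of which 106 were left out for a higher L at 13 DAP and 9 for a lower one. These WT values are therefore given as a description without a test. The WT 48 h cold minus 11 DAP difference in L had a median of 1.21 over the members (range 1.00 to 2.42). The mean count per WT 48 h cold library had a median of 1578 over the members and was 88 at the lowest. CuAO1, a copper amine oxidase gene, and AT4G24380 lay just inside the limit of 1 (both 1.00), and AT3G15630 and PEX19-2 just outside it (0.9996 and 0.9999).

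The label "not age-induced" was set by the rule on the CPM scale, and it held only in part after scaling for composition. On CPM, 13 DAP minus 11 DAP in L had a median of -0.23 over the members, beside -0.36 over all genes with a mean of at least 10 counts. With TMM scaling, which equalises the bulk of genes between libraries, the age difference had a median of 0.19 over the members and of 0.01 over all genes. Of the 229 members 101 were then more than 0.3 higher at 13 DAP (range over all members -1.42 to 0.89). The rule applied to TMM-scaled CPM chose 127 genes, 121 of them members. WT 13 DAP replicate 1 stood apart from the other libraries, with 47.0% of its counts in ribosomal RNA units against 6.00% to 16.5% in the other 17 libraries. Without it the rule chose 218 genes, 205 of them members. With ribosomal RNA genes left out of the library totals the rule chose 153 genes, 150 of them members. The set is accordingly called the cold-raised genes here, meaning the 229 genes of the rule and not genes free of any change with age.

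Totals were between 43.1 M and 84.0 M counts per library, so that a floor of 3 counts stood at 0.0357 to 0.0695 CPM. MYB107 (chromosome 3, 661849 to 664011, TAIR10.1) had 4.09 to 5.30 CPM in myb107-2 after 48 h cold and 2.80 to 4.42 CPM in myb107-2 at 11 DAP, against 18.7 to 64.6 CPM over the 12 WT libraries. No member was among 7 seed coat, 6 endosperm, 7 embryo and 3 silique valve margin marker genes. SHP1, by name a relative of the valve margin marker SHP2, was in none of these lists and was a member. The summed seed coat markers lay between 1490 and 1520 CPM in myb107-2 after 48 h cold and between 1730 and 2690 CPM in myb107-2 at 11 DAP. Most of it was TT10 (means 1350 and 1880 CPM). In myb107-2 after 48 h cold 3 of the 7 were called lower, beside 5.14% of all genes tested. In WT this sum was 842 to 1660 CPM after 48 h cold, 2160 to 2520 CPM at 11 DAP and 335 to 1100 CPM at 13 DAP. The summed endosperm markers lay between 19700 and 22200 CPM after 48 h cold and 12300 and 18800 CPM at 11 DAP in myb107-2, nearly all of it EPR1 (means 20500 and 15100 CPM). ALE1, with means of 1.70 and 5.67 CPM in these groups, was the 1 endosperm marker called lower of 5 tested, and none was called higher. The summed embryo markers were between 26.4 and 33.2 CPM after 48 h cold and 19.6 and 25.2 CPM at 11 DAP in myb107-2. Nearly all of it was CUC1 (means 29.4 and 22.2 CPM), with CUC2 and WUS at no more than 3 counts in any library. In WT after 48 h cold, at 11 DAP and at 13 DAP the embryo sum was 21.5 to 30.9, 15.1 to 16.6 and 6.47 to 12.9 CPM. The endosperm sum was there 14200 to 23000, 14100 to 17700 and 13200 to 27000 CPM. The summed valve margin markers, mostly SHP2, were 228 to 275 CPM after 48 h cold and 206 to 232 CPM at 11 DAP in myb107-2. Among the markers of the dissected tissues, FWA of the endosperm stayed at or under 0.304 CPM and TT12 of the seed coat at or under 0.605 CPM. Their part in the values below was not tested. In bulk RNA, fewer cells of a type and less RNA per cell cannot be told apart.

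Cold is known to act on plant cells within minutes through calcium and protein kinase signals, and then through transcription factors of the AP2/ERF, C2H2 zinc finger, WRKY and NAC families. The best-known of these are the CBF factors, which bind the C-repeat in promoters of protective genes such as dehydrins. Cold also acts on the circadian clock, splicing, starch breakdown and flavonol synthesis, and in the seed coat and endosperm the temperature met by the mother plant is known to alter dormancy and the barriers around the embryo.

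Windows from 250 bases before to 50 bases after the annotated gene start were read from TAIR10.1 for all 229 members. They were searched on both strands for CCGAC, the core of the C-repeat; AAAATATCT, the evening element of clock-regulated promoters; ACGTG, the core of abscisic acid response elements; and CACGTG, the G-box, which contains ACGTG. The ACGTG core stood in the windows of 102 members (44.5%), against 24.6% of 37859 windows of all genes and 27.4% of those of expressed genes. CACGTG stood in 13.1% of the members' windows, against 6.46% of all windows and 8.83% of those of expressed genes. AAAATATCT stood in 4.80%, which is 11 members, against 2.49% and 2.92%. CCGAC stood in 16.6% of the members' windows, against 15.3% and 16.2%. A match is a string of letters and was not tested as a binding site. Stretches are printed for members whose values the results turn on. AT4G30650 was the member that held all 4 motifs among those printed, ELIP1 and HSFA1E are shown for a G-box, FLS1 and PDF2.1 for the evening element, SUS3 for the ACGTG core, and STZ and RD26 for the C-repeat core. Each runs 5′ to 3′ on the strand of its gene, with motif matches on either strand in capitals.
AT4G30650 (chr4:14954044-14954203, plus strand, bases -160 to -1 before the start): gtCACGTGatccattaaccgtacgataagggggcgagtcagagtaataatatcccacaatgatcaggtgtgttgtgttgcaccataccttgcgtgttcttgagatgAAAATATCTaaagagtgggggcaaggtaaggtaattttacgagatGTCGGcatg
ELIP1 (chr3:8085670-8085769, minus strand, bases -100 to -1): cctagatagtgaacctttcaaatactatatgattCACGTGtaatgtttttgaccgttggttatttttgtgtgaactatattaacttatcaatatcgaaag
HSFA1E (chr3:673238-673337, plus strand, bases -190 to -91): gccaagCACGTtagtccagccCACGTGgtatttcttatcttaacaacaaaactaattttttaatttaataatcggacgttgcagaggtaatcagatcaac
FLS1 (chr5:2803643-2803742, plus strand, bases -190 to -91): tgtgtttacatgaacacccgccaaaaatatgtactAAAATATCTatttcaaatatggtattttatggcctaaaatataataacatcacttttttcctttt
PDF2.1 (chr2:538120-538219, plus strand, bases -130 to -31): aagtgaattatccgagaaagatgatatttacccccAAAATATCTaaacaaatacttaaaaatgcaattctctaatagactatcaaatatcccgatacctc
SUS3 (chr4:994566-994665, plus strand, bases -160 to -61): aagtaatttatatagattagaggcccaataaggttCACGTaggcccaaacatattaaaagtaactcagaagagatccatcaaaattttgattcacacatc
STZ (chr1:9649324-9649423, minus strand, bases -100 to -1): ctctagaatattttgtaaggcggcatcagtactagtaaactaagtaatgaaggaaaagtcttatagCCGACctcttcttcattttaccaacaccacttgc
RD26 (chr4:13709221-13709320, minus strand, bases -150 to -51): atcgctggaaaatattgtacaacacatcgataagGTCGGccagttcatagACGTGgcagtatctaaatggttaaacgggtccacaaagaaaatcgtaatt

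The question open to a test was whether the genes chosen in WT were also higher in cold-treated seeds of myb107-2, whose libraries the rule did not use. The 3 myb107-2 48 h cold libraries were set against the 3 myb107-2 11 DAP libraries with edgeR's quasi-likelihood test over 20236 genes. A call needed an adjusted p (Benjamini-Hochberg) no higher than 0.05 together with a log2 fold change of 1 or more in either direction. Cold-treated myb107-2 seeds were also 48 h older, and with no myb107-2 13 DAP group the effects of cold and of age cannot be told apart in the mutant. Of the 229 cold-raised genes, 125 (54.6%) were called higher, beside 5.5% of all genes tested, and 1 (0.437%) was called lower, beside 5.14%. The other 103 were not called, of which a part missed only the fold: 176 members were higher at the adjusted p alone. The fitted log2 fold change was above 0 in 220 of the 229 members, with a median of 1.11 (quartiles 0.73 and 1.67), whereas it was above 0 in 48.2% of all tested genes, with a median of -0.02. Of the 101 members that TMM scaling placed more than 0.3 higher at 13 DAP, 61 (60.4%) were called higher, and of the other 128 members 64 were.

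The same order was seen library by library. The median log2 difference of a member from its WT 11 DAP mean was 0.93, 1.203 and 1.01 in the 3 myb107-2 48 h cold libraries, against 0.10, 0.04 and 0.29 in the 3 myb107-2 11 DAP libraries. Over the WT series it was 0.18, -0.03 and -0.20 at 11 DAP, 0.41, 0.41 and 0.37 after 6 h cold, and 1.13, 1.23 and 1.34 after 48 h cold, and -0.46, -0.13 and -0.23 at 13 DAP. The -0.46 was that of WT 13 DAP replicate 1, the library with the high share of ribosomal RNA counts. The 6 h libraries stood between the 11 DAP and the 48 h libraries, and all 3 of them were above all 11 DAP libraries. The members together held 1.36% to 1.69% of all counts in myb107-2 after 48 h cold and 0.773% to 0.893% in myb107-2 at 11 DAP, and 1.69% to 1.89% after 48 h cold and 0.621% to 0.857% at 11 DAP in WT.

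**Figure D1:**
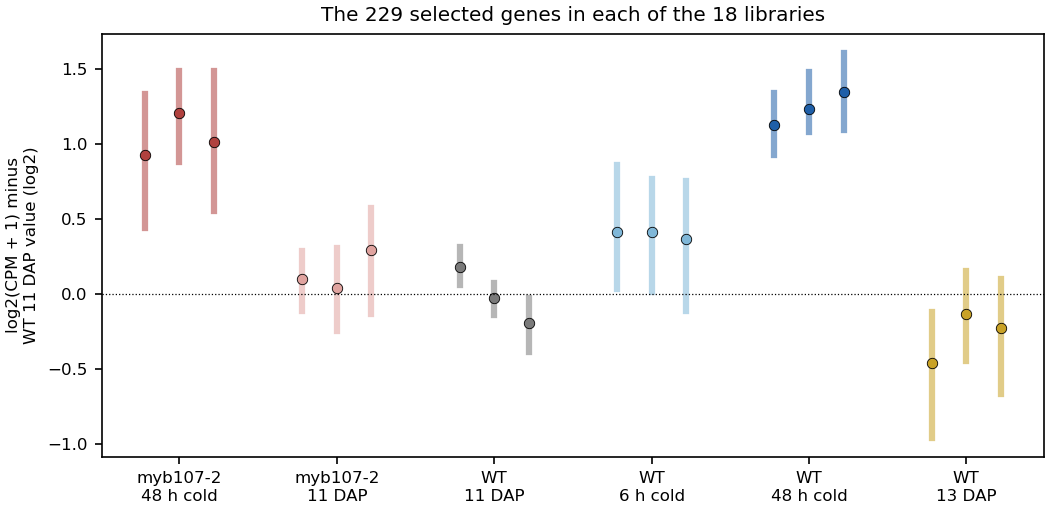
Each point is the median over the 229 genes of log2(CPM + 1) in a library minus the WT 11 DAP value in log2 units, and each bar spans the quartiles. The myb107-2 48 h cold libraries sit at 0.93 to 1.203, above the myb107-2 11 DAP libraries at 0.04 to 0.29, and the WT 6 h libraries (0.37 to 0.41) lie between the WT 11 DAP and 48 h libraries.

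The plot of both genotypes gene by gene sets the mutant's fold change against the WT difference that chose the members. Over all members, the L differences between 48 h cold and 11 DAP in myb107-2 lay between -1.14 and 3.65. The spread among members with a like WT difference was not measured.

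**Figure D2:**
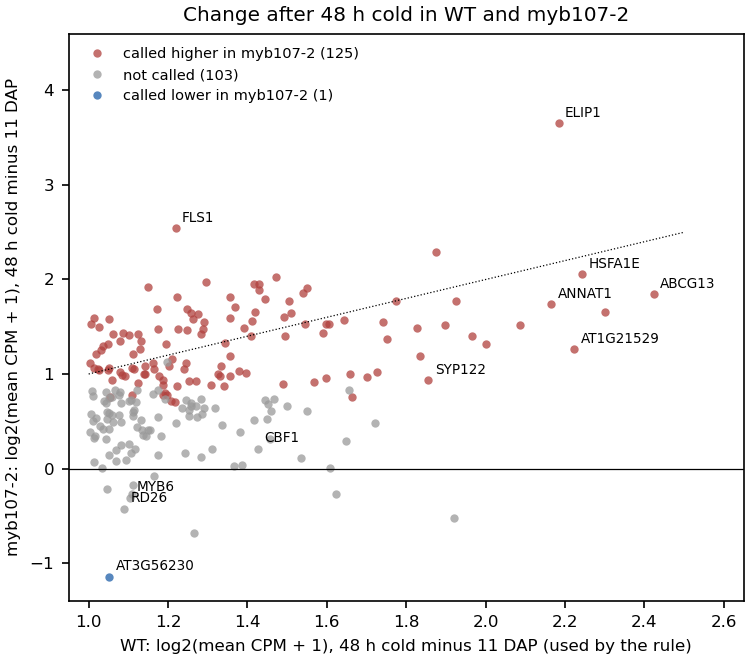
Each point is 1 of the 229 genes, with the difference in log2(mean CPM + 1) between 48 h cold and 11 DAP in myb107-2 on the vertical axis and in WT, which the rule used, on the horizontal axis. Colours give the call of edgeR's test and the dotted line marks equal differences: the 125 genes called higher lie mostly near or above 1 on the vertical axis, ELIP1 stands highest at 3.65, and AT3G56230, the 1 gene called lower, stands at -1.14.

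The members were sorted by role into 11 groups with 87 genes in all. These groups and the examples within them were chosen after the values had been seen, so their counts are descriptions. Each count stands beside 54.6% of all members and 5.5% of all genes tested called higher in myb107-2. Protective proteins and flavonol synthesis made up 11 members, of which 7 were called higher in myb107-2 (median log2 fold change 1.17). ELIP1 encodes an early light-induced protein, a chlorophyll-binding protein of the thylakoid that protects against light stress. It had 463, 426 and 424 CPM in myb107-2 after 48 h cold, against 34.3, 28.5 and 39 CPM in myb107-2 at 11 DAP (log2 fold change 3.84 ± 0.15 SE, adjusted p = 5.66e-07). In WT it had 162, 71.6 and 61.6 CPM at 11 DAP, 199, 180.5 and 175 CPM after 6 h cold, 394, 452 and 505 CPM after 48 h cold and 155, 105 and 65.8 CPM at 13 DAP. The 48 h cold libraries of both genotypes overlapped, and the 11 DAP libraries of myb107-2 all lay below those of WT. FLS1, flavonol synthase, had 186, 166 and 193 CPM in myb107-2 after 48 h cold, against 40.8, 23.8 and 26.6 CPM at 11 DAP (log2 fold change 2.72 ± 0.17 SE, adjusted p = 3e-06). Its WT libraries held 76.0, 55.8 and 40.7 CPM at 11 DAP, 97.7, 103 and 92.6 CPM after 6 h cold, 99.0, 142 and 165 CPM after 48 h cold and 86.0, 68.2 and 49.5 CPM at 13 DAP. All 3 myb107-2 48 h cold libraries were thus above the 3 WT ones, and the 6 h WT libraries were already above 11 DAP.

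HSFA1E (AT3G02990) encodes a heat shock transcription factor of class A1, a group that starts the heat response in Arabidopsis. Its start lies 9417 bases from the end of MYB107, the gene disrupted in the mutant. In myb107-2 it had 34.3, 39.6 and 40.1 CPM after 48 h cold, against 7.70, 6.92 and 10.5 CPM at 11 DAP (log2 fold change 2.32 ± 0.15 SE, adjusted p = 3.16e-06). In WT the values were 7.38, 4.93 and 3.41 CPM at 11 DAP, 14.4, 17.0 and 15.3 CPM after 6 h cold, 26.3, 31.1 and 28.2 CPM after 48 h cold and 6.22, 6.46 and 4.34 CPM at 13 DAP. The myb107-2 48 h cold libraries did not overlap the WT ones and were higher. AT4G30650, a small hydrophobic protein of a low-temperature and salt responsive family, had 109, 113 and 112 CPM in myb107-2 after 48 h cold, against 37.6, 33.5 and 34.4 CPM at 11 DAP (log2 fold change 1.80 ± 0.11 SE, adjusted p = 1.93e-06). Its WT libraries had 49.0, 35.2 and 35.7 CPM at 11 DAP, 128, 100.3 and 85.5 CPM after 6 h cold, 76.8, 99.0 and 119 CPM after 48 h cold and 29.8, 33.4 and 27.1 CPM at 13 DAP. The 6 h libraries overlapped those of 48 h. AT1G54410 encodes a dehydrin, a protein of dried or cold cells, while COR47, ERD10 and LTI30 of the same family were not members. It had 293, 322 and 248 CPM after 48 h cold and 142, 189.9 and 223 CPM at 11 DAP in myb107-2 (log2 fold change 0.77 ± 0.19 SE, adjusted p = 0.0119), and missed the fold limit. CAT3, a catalase that breaks down hydrogen peroxide, likewise missed it (log2 fold change 0.87 ± 0.12 SE, adjusted p = 0.000361), with 261, 264 and 242 CPM after 48 h cold and 160.2, 152 and 150.1 CPM at 11 DAP. P5CS1, the enzyme of proline synthesis, had 12.5, 18.2 and 23.4 CPM and 10.8, 6.71 and 10.12 CPM in these groups and was called higher (log2 fold change 1.09 ± 0.20 SE, adjusted p = 0.00299). In 10 of these 11 members all 3 WT 6 h cold libraries were above all WT 11 DAP libraries, with P5CS1 as the exception.

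**Figure D3:**
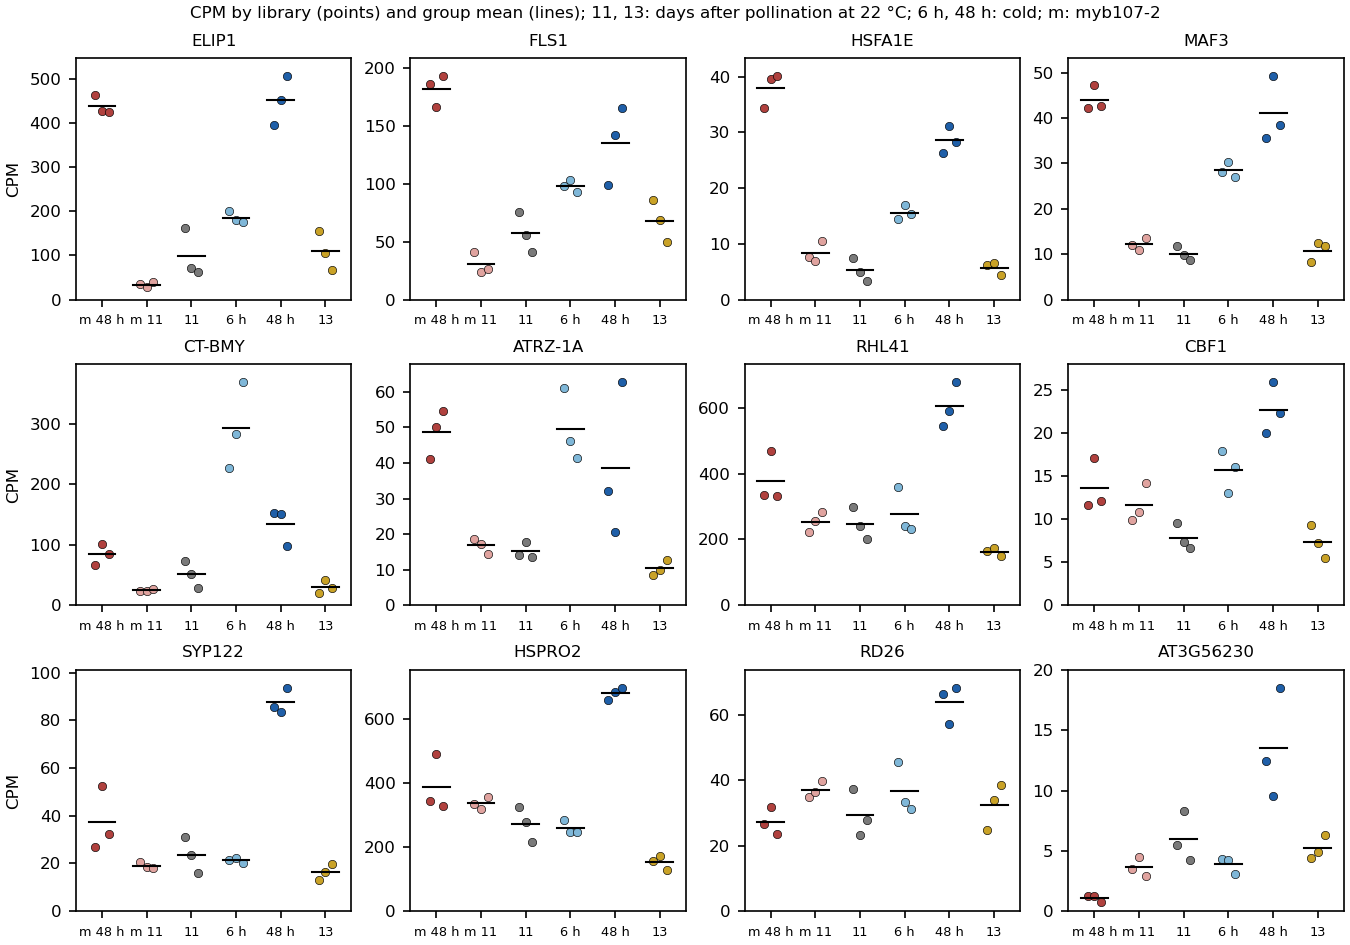
CPM of 12 members in each library (points) with the group mean (lines), for myb107-2 after 48 h cold and at 11 DAP (m), then WT at 11 DAP, after 6 h and 48 h cold and at 13 DAP, each axis starting at 0. ELIP1, FLS1, HSFA1E and MAF3 are as high in cold-treated myb107-2 as in WT or higher, CT-BMY peaks after 6 h cold, and RHL41, CBF1, SYP122, HSPRO2, RD26 and AT3G56230 have all cold-treated myb107-2 libraries below those of WT.

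Starch and sugar enzymes gave 4 members, all of them called higher in myb107-2 (median log2 fold change 1.53). Of all members 54.6% were called higher, and of all genes tested 5.5%. SUS3 encodes a sucrose synthase, which splits sucrose. It had 48.5, 56.4 and 62.7 CPM in myb107-2 after 48 h cold, against 16.7, 12.6 and 13.8 CPM at 11 DAP (log2 fold change 2.08 ± 0.12 SE, adjusted p = 1.93e-06). WT seeds had 16.5, 14.9 and 15.3 CPM at 11 DAP, 20.9, 26.2 and 26.9 CPM after 6 h cold, 42.1, 51.0 and 37.95 CPM after 48 h cold and 11.4, 22.9 and 22.5 CPM at 13 DAP. The 3 sampling points of this cold series did not overlap. At 13 DAP the 11.4 CPM was that of replicate 1, with 47.0% of its counts in ribosomal RNA units. Replicates 2 and 3 at 13 DAP lay above all 11 DAP libraries. CT-BMY, a chloroplast beta-amylase that releases maltose from starch, had another course. Its WT libraries had 73.4, 51.2 and 29.2 CPM at 11 DAP, 228, 283 and 369.7 CPM after 6 h cold, 153, 150.4 and 98.4 CPM after 48 h cold and 21.1, 41.8 and 28.5 CPM at 13 DAP. The 6 h libraries were all above the 48 h libraries. In myb107-2 it had 66.9, 102 and 85.5 CPM after 48 h cold, against 23.8, 24.5 and 27.7 CPM at 11 DAP (log2 fold change 1.87 ± 0.14 SE, adjusted p = 8.8e-06). SPS3F, a sucrose phosphate synthase, had 114, 121 and 134 CPM after 48 h cold and 74.96, 51.3 and 66.4 CPM at 11 DAP in myb107-2 (log2 fold change 1.075 ± 0.12 SE, adjusted p = 9.97e-05). TPPF, a trehalose phosphate phosphatase, had 3.77, 5.31 and 6.12 CPM and 1.52, 2.16 and 3.91 CPM in these groups, which overlapped, and was also called (log2 fold change 1.18 ± 0.33 SE, adjusted p = 0.0232).

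Among clock, light and flowering genes 8 of 9 members were called higher (median log2 fold change 1.65). MAF3, a MADS-box relative of the flowering repressor FLC, had 42.2, 47.2 and 42.7 CPM in myb107-2 after 48 h cold, against 12.1, 11.0 and 13.6 CPM at 11 DAP (log2 fold change 1.99 ± 0.13 SE, adjusted p = 3e-06). Its WT libraries had 11.8, 9.80 and 8.66 CPM at 11 DAP, 28.1, 30.2 and 27.0 CPM after 6 h cold, 35.6, 49.2 and 38.4 CPM after 48 h cold and 8.24, 12.4 and 11.8 CPM at 13 DAP. MAF3 was therefore like SUS3 in its WT order, with no overlap between the cold sampling points. SHP1, a MADS-box factor of ovule and fruit development, had 98.9, 112 and 102 CPM and 32.4, 36.3 and 42.9 CPM in the cold and 11 DAP groups of myb107-2 (log2 fold change 1.63 ± 0.13 SE, adjusted p = 1.43e-05). AGL20, also called SOC1 and known as a promoter of flowering, had 5.08, 7.49 and 7.75 CPM and 2.25, 2.96 and 2.94 CPM (log2 fold change 1.47 ± 0.24 SE, adjusted p = 0.00135). MAF3 and AGL20, a repressor and a promoter of flowering, were thus both called higher. PRR9, a pseudo-response regulator of the morning loop of the clock, had 12.8, 19.9 and 24.1 CPM in myb107-2 after 48 h cold, against 8.98, 4.53 and 5.99 CPM at 11 DAP (log2 fold change 1.65 ± 0.23 SE, adjusted p = 0.000571). PRR9 shares 41.1% and its neighbour in sequence AT2G46670 87.8% of their 50-base words with other places in the genome, so reads of the pair may have been divided between them. CDF1, a DOF factor that delays flowering, had 9.05, 14.1 and 8.72 CPM after 48 h cold and 3.77, 3.36 and 3.90 CPM at 11 DAP in myb107-2 (log2 fold change 1.67 ± 0.23 SE, adjusted p = 0.000487). Time of day of sampling is not given in the sources used here, and its part in the values of clock genes was not tested. PRR9 was 1 of 19 genes in a list of clock and evening-phased cold genes to meet the rule. In myb107-2, 8 of the 19 were called higher, beside 5.5% of all genes tested.

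RNA-handling members were 3, all called higher, beside 54.6% of all members and 5.5% of all genes tested. RS40, a serine/arginine-rich splicing factor, had 77.1, 83.0 and 88.0 CPM in myb107-2 after 48 h cold, against 31.3, 31.1 and 28.6 CPM at 11 DAP (log2 fold change 1.58 ± 0.11 SE, adjusted p = 5.82e-06). Its WT libraries had 40.3, 38.5 and 31.6 CPM at 11 DAP, 154, 157 and 146 CPM after 6 h cold, 85.01, 93.0 and 94.8 CPM after 48 h cold and 22.7, 29.2 and 24.2 CPM at 13 DAP. ATRZ-1A, a zinc finger RNA-binding protein known to raise freezing tolerance, had 41.0, 50.1 and 54.6 CPM and 18.8, 17.3 and 14.4 CPM in these myb107-2 groups (log2 fold change 1.65 ± 0.14 SE, adjusted p = 1.43e-05). In WT it had 14.2, 17.7 and 13.6 CPM at 11 DAP, 61.0, 46.2 and 41.4 CPM after 6 h cold and 32.1, 20.6 and 62.8 CPM after 48 h cold. The WT 6 h libraries of RS40 were all above its 48 h libraries, whereas those of ATRZ-1A overlapped them. ATRZ-1A overlaps AT3G26430 on the same strand, which makes its count less certain. U1.4 is a gene for U1 RNA of the spliceosome. The library kit was one for mRNA and U1 RNA is a small nuclear RNA, so the count of U1.4 is less certain. U1.4 had 7.25, 6.38 and 5.10 CPM after 48 h cold and 1.64, 1.85 and 1.75 CPM at 11 DAP in myb107-2 (log2 fold change 1.98 ± 0.28 SE, adjusted p = 0.000543).

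AP2/ERF and RAV factors, C2H2 zinc finger, WRKY and NAC factors, and kinase, calcium and membrane signalling genes together made up 32 members. In myb107-2, 12 of the 32 were called higher with a median log2 fold change of 0.92, against 113 of the other 197 members with a median of 1.18. This difference was not tested, since the grouping was made after the values had been seen. After 48 h cold 18 of the 32 had all 3 myb107-2 libraries below all 3 WT libraries, beside 28.4% of all members and 10.5% of all genes. The WT 48 h cold libraries chose the members, which favours this direction. Replicate 2 of the myb107-2 48 h cold libraries was the highest of the 3 in all 32 of them, and in 58.1% of all members and 37.0% of all genes. Without that library 6 of the 32 were called higher, with a median log2 fold change of 0.67. Over all 229 members, 110 were called higher without it. Replicate 1 of the WT 11 DAP libraries was the highest of 3 in 26 of the 32 and in 155 of all members. No share over all genes is given for that replicate, so these counts are not read as a trait of the members.

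CBF1, the C-repeat binding factor, had 11.6, 17.1 and 12.1 CPM in myb107-2 after 48 h cold, against 9.86, 10.8 and 14.2 CPM at 11 DAP, and these groups overlapped (log2 fold change 0.37 ± 0.20 SE, adjusted p = 0.193). In WT it had 9.50, 7.37 and 6.61 CPM at 11 DAP, 17.9, 13.1 and 16.1 CPM after 6 h cold, 19.9, 25.9 and 22.3 CPM after 48 h cold and 9.29, 7.25 and 5.48 CPM at 13 DAP. WT thus went above 11 DAP by 6 h, and the myb107-2 cold libraries all stayed below the WT cold libraries. Over all 10 AP2/ERF and RAV members, 5 were called higher in myb107-2. TEM1, a RAV factor that represses flowering, had 6.38, 7.08 and 5.63 CPM after 48 h cold and 2.22, 2.70 and 3.12 CPM at 11 DAP (log2 fold change 1.41 ± 0.24 SE, adjusted p = 0.00183). ERF104, an ethylene response factor, had 74.7, 116 and 84.3 CPM and 51.8, 42.6 and 40.1 CPM in the same groups (log2 fold change 1.16 ± 0.15 SE, adjusted p = 0.000368). ORA47, which acts in jasmonate synthesis, had 65.5, 94.2 and 54.1 CPM and 37.7, 44.5 and 69.5 CPM and was not called (log2 fold change 0.64 ± 0.24 SE, adjusted p = 0.0798). Of the fixed list of 21 genes of the CBF regulon and cold-regulated proteins, 3 were members (CBF1, STZ and RHL41). In myb107-2, 5 of the 19 tested were called higher, beside 5.5% of all genes tested. These 5 were DREB2A, LTI30, KIN1, KIN2 and COR15B, and no member was among them. In WT, KIN1 and KIN2 had means of 2.79 and 24.7 CPM after 48 h cold and of 357 and 699 CPM at 13 DAP.

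Of 10 C2H2 zinc finger, WRKY and NAC factors 2 were called higher, beside 54.6% of all members and 5.5% of all genes tested. STZ (ZAT10) and RHL41 (ZAT12) are C2H2 zinc finger factors of the response to oxidative and cold stress. STZ had 523, 655 and 466 CPM in myb107-2 after 48 h cold, against 297, 319.6 and 331 CPM at 11 DAP, and lay just under the fold limit (log2 fold change 0.93 ± 0.15 SE, adjusted p = 0.00126). In WT STZ had 390.1, 319 and 241 CPM at 11 DAP, 385, 297 and 291 CPM after 6 h cold, 703, 742 and 683 CPM after 48 h cold and 229.8, 296 and 267 CPM at 13 DAP. RHL41 had 336, 469 and 332 CPM in myb107-2 after 48 h cold, against 223, 255 and 284 CPM at 11 DAP (log2 fold change 0.70 ± 0.16 SE, adjusted p = 0.00856). For both, the mutant's cold libraries were above its 11 DAP libraries and below the WT cold libraries, and the WT 6 h libraries overlapped those of 11 DAP. RD26, a NAC factor of the dehydration and abscisic acid response, had its lower values in the mutant's cold libraries. It had 26.6, 31.9 and 23.6 CPM in myb107-2 after 48 h cold, against 34.9, 36.5 and 39.9 CPM at 11 DAP, without overlap, but the fitted difference did not pass the test (log2 fold change -0.30 ± 0.14 SE, adjusted p = 0.151). Its WT libraries had 37.4, 23.4 and 27.8 CPM at 11 DAP, 45.6, 33.5 and 31.3 CPM after 6 h cold, 66.4, 57.2 and 68.4 CPM after 48 h cold and 24.7, 34.0 and 38.5 CPM at 13 DAP. NTM1, a membrane-anchored NAC factor, was called higher, with 23.8, 52.9 and 43.3 CPM after 48 h cold and 22.3, 18.8 and 19.3 CPM at 11 DAP in myb107-2 (log2 fold change 1.11 ± 0.21 SE, adjusted p = 0.00326).

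Kinase, calcium and membrane signalling genes numbered 12, of which 5 were called higher, beside 54.6% of all members and 5.5% of all genes tested. ANNAT1 encodes annexin 1, a calcium-dependent membrane-binding protein. It had 11.7, 15.2 and 12.3 CPM in myb107-2 after 48 h cold, against 3.19, 3.58 and 2.87 CPM at 11 DAP (log2 fold change 2.16 ± 0.20 SE, adjusted p = 2.86e-05). The WT libraries had 1.77, 1.64 and 1.90 CPM at 11 DAP, 2.17, 2.29 and 0.837 CPM after 6 h cold, 9.17, 12.7 and 12.4 CPM after 48 h cold and 1.69, 1.27 and 2.70 CPM at 13 DAP, and the 6 h and 11 DAP libraries overlapped. SYP122, a syntaxin of the plasma membrane, had 27.0, 52.4 and 32.5 CPM in myb107-2 after 48 h cold, against 20.6, 18.4 and 17.98 CPM at 11 DAP (log2 fold change 1.096 ± 0.20 SE, adjusted p = 0.00273). In WT it had 31.2, 23.4 and 15.9 CPM at 11 DAP, 21.6, 22.1 and 20.1 CPM after 6 h cold and 85.5, 83.7 and 93.7 CPM after 48 h cold. Its mutant cold libraries lay below all WT cold libraries, and WT at 6 h overlapped 11 DAP. The MAP kinase MPK3 had 32.3, 62.7 and 40.0 CPM and 36.2, 23.0 and 26.6 CPM in these myb107-2 groups, which overlapped (log2 fold change 0.78 ± 0.21 SE, adjusted p = 0.0201). MKK9, a MAP kinase kinase, had 108, 144 and 98.2 CPM and 60.8, 68.0 and 67.0 CPM, which did not (log2 fold change 0.97 ± 0.16 SE, adjusted p = 0.00125). Neither reached the fold limit. CML37, a calmodulin-like protein, varied between libraries, with 12.1, 26.3 and 7.06 CPM after 48 h cold and 6.54, 9.77 and 10.09 CPM at 11 DAP (log2 fold change 0.93 ± 0.40 SE, adjusted p = 0.116).

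Of 8 members linked to abscisic acid, ethylene or jasmonate, 1 was called higher in myb107-2 (median log2 fold change 0.62). The called gene was CYP94B1, which breaks down active jasmonate, with 47.0, 50.4 and 56.2 CPM after 48 h cold and 17.4, 15.6 and 18.1 CPM at 11 DAP (log2 fold change 1.72 ± 0.11 SE, adjusted p = 3.28e-06). NCED3, the rate-limiting enzyme of abscisic acid synthesis under drought, had 8.01, 10.3 and 7.58 CPM and 9.41, 8.29 and 4.52 CPM in myb107-2, with overlap (log2 fold change 0.33 ± 0.26 SE, adjusted p = 0.375). ABI1, a protein phosphatase that holds back abscisic acid signalling, had 60.8, 74.5 and 68.2 CPM and 50.6, 45.8 and 50.2 CPM (log2 fold change 0.60 ± 0.10 SE, adjusted p = 0.00167). ACS6, an enzyme of ethylene synthesis, had 108, 178 and 121 CPM and 95.5, 78.4 and 114 CPM (log2 fold change 0.63 ± 0.17 SE, adjusted p = 0.0206). The cold libraries of NCED3, ABI1 and ACS6 in myb107-2 all lay below those of WT. None of 12 genes in a list for dormancy and abscisic acid was a member. In myb107-2, 1 of the 12 was called higher, beside 5.5% of all genes tested. This was DOG1, a main regulator of seed dormancy (log2 fold change 3.42, adjusted p = 8.23e-07). Its WT means were 4.2 CPM at 11 DAP, 29.3 CPM after 48 h cold and 58.6 CPM at 13 DAP, so in WT it was higher with age than in the cold.

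Cell wall genes gave 6 members with 5 called higher. SBTI1.1, a subtilase that cleaves peptide hormone precursors, had 532, 556 and 564 CPM in myb107-2 after 48 h cold, against 231, 213 and 241 CPM at 11 DAP (log2 fold change 1.404 ± 0.11 SE, adjusted p = 8.92e-06). Its cold libraries lay above those of WT, which had 452, 465 and 436 CPM. The pectin lyase-like gene AT1G04680 had 23.4, 27.2 and 22.0 CPM and 8.73, 5.76 and 6.00 CPM (log2 fold change 1.95 ± 0.17 SE, adjusted p = 2.7e-05). MAN1, an enzyme that cuts mannan of cell walls, had 45.0, 61.2 and 67.2 CPM and 28.2, 26.9 and 38.4 CPM (log2 fold change 1.02 ± 0.15 SE, adjusted p = 0.000752). None of the 20 suberin and lignin genes of the outer integument barrier was a member. In myb107-2, 11 of the 20 were called higher (median log2 fold change 2.00), beside 5.5% of all genes tested. The 20 include MYB107 itself, and none was called lower. Their summed level was 872 to 934 CPM in myb107-2 after 48 h cold and 833 to 1010 CPM at 11 DAP. The largest part of this sum was ABCG20, with means of 369 CPM after 48 h cold and 520 CPM at 11 DAP. RWP1 had means of 37.5 and 1.16 CPM in these groups, and LAC3, CYP86A1 and FAR1 had a mean of 0 CPM at 11 DAP. In WT the sum of the 20 was 2560 to 2890 CPM after 48 h cold and 1500 to 1610 CPM at 11 DAP. At 13 DAP the WT sum was 2200 to 5310 CPM, so the list also rose with age in WT. Sulfur and metal genes gave 8 members with 6 called higher. AT5G24580, a metal-binding domain protein, had 189.6, 228 and 174 CPM in myb107-2 after 48 h cold, against 70.3, 79.6 and 85.3 CPM at 11 DAP (log2 fold change 1.46 ± 0.14 SE, adjusted p = 4.91e-05). LSU3, induced by sulfur shortage, had 4.67, 8.10 and 8.70 CPM and 1.00, 0.433 and 1.59 CPM (log2 fold change 2.97 ± 0.35 SE, adjusted p = 0.000173). Its relative LSU1 had 2.18, 4.54 and 2.43 CPM and 0, 0.150 and 1.21 CPM (log2 fold change 3.04 ± 0.69 SE, adjusted p = 0.00876). HMA5, a copper-transporting ATPase, had 16.2, 17.64 and 17.9 CPM and 7.89, 5.13 and 6.36 CPM (log2 fold change 1.54 ± 0.16 SE, adjusted p = 6.65e-05).

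Long non-coding RNAs gave 6 members, and 5 were called higher, beside 54.6% of all members and 5.5% of all genes tested. AT2G08820 and AT2G08825 lie on opposite strands of the same stretch of chromosome 2 and moved together. AT2G08820 had 31.9, 36.3 and 38.6 CPM in myb107-2 after 48 h cold, against 13.9, 13.6 and 7.69 CPM at 11 DAP (log2 fold change 1.72 ± 0.20 SE, adjusted p = 0.000137). AT2G08825 had 25.7, 26.3 and 30.2 CPM and 9.50, 10.5 and 4.00 CPM (log2 fold change 1.89 ± 0.26 SE, adjusted p = 0.000496). The library kit marks strand, but the strand setting of the counting is not given in the sources used here, so reads of this pair cannot be told apart. The non-coding RNA AT1G21529 had 2.49, 1.33 and 5.28 CPM in myb107-2 after 48 h cold, against 0.322, 0.882 and 0.843 CPM at 11 DAP (log2 fold change 2.36 ± 0.60 SE, adjusted p = 0.0157). The call was lost without 11 DAP replicate 1 (log2 fold change 1.91) or without 48 h cold replicate 3 (1.73). Of its 50-base words 31.3% are found elsewhere in the genome.

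**Figure D4:**
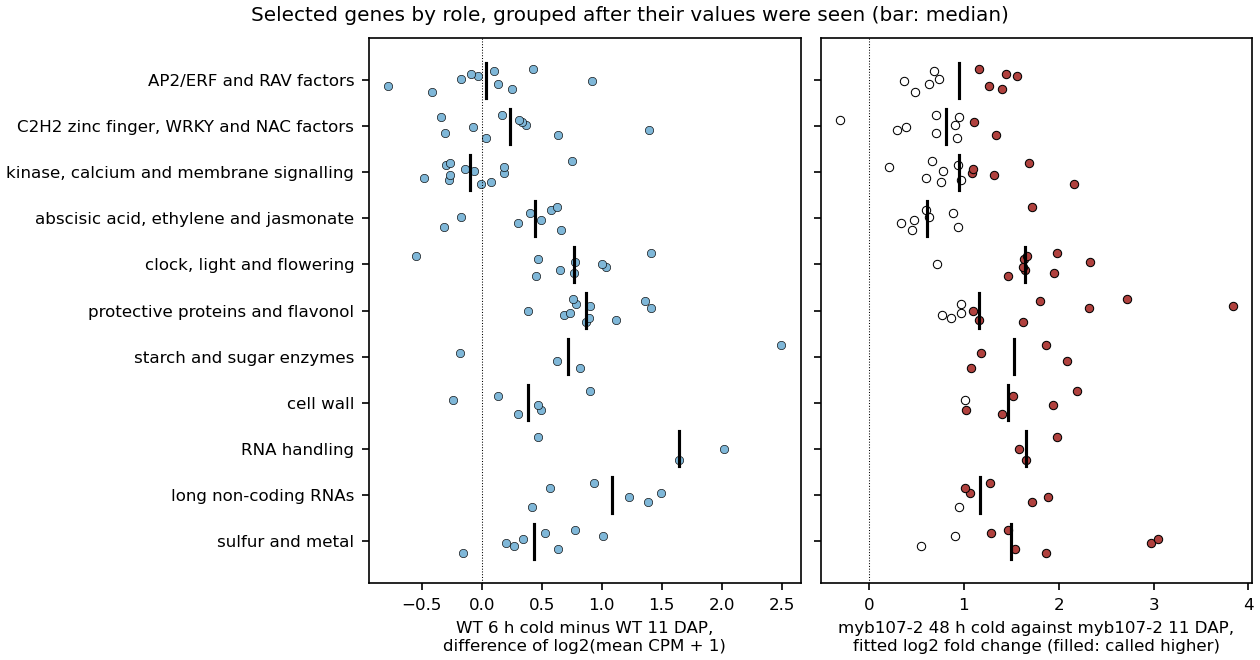
Members of the 11 role groups, with the WT difference in log2(mean CPM + 1) between 6 h cold and 11 DAP on the left and the fitted log2 fold change of myb107-2 48 h cold against myb107-2 11 DAP on the right (each point a gene, bars are medians and filled points called higher). The factor and signalling groups at the top have 6 h medians between -0.10 and 0.24. The medians of all other groups lie to the right of theirs in both panels, except the abscisic acid, ethylene and jasmonate group. That group lies to the right of them at 6 h only.

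Other members were named for a large WT difference or a high CPM. ABCG13, a transporter needed for the cuticle of petals, had 9.22, 8.56 and 5.71 CPM in myb107-2 after 48 h cold, against 1.39, 1.51 and 1.48 CPM at 11 DAP (log2 fold change 2.57 ± 0.31 SE, adjusted p = 0.000192). Its values in WT were 16.5, 18.8 and 8.97 CPM after 48 h cold, against 2.17, 2.40 and 1.25 CPM at 11 DAP. PDF2.1, a plant defensin, had 890.3, 1116 and 1111 CPM in myb107-2 after 48 h cold, against 598, 571 and 475 CPM at 11 DAP (log2 fold change 1.05 ± 0.13 SE, adjusted p = 0.000298). Its WT values were 576, 448 and 542 CPM at 11 DAP, 581, 607 and 592 CPM after 6 h cold, 1167, 1183 and 1430 CPM after 48 h cold and 224, 382 and 457 CPM at 13 DAP. The change at 6 h was small beside that at 48 h. UCP5, a mitochondrial carrier, had 374, 530.4 and 358 CPM and 281, 282 and 294 CPM in the cold and 11 DAP groups of myb107-2 (log2 fold change 0.69 ± 0.15 SE, adjusted p = 0.00727). HSPRO2, named for a nematode resistance gene of sugar beet, had 344, 491 and 329.8 CPM and 336, 319 and 358 CPM (log2 fold change 0.33 ± 0.15 SE, adjusted p = 0.128). AT4G29780, annotated as a nuclease, had 510.5, 798 and 628 CPM and 391, 338 and 433 CPM (log2 fold change 0.87 ± 0.14 SE, adjusted p = 0.0015). These last 3 were not called, and their mutant cold libraries all lay below the WT cold libraries. AT2G32210, a small cysteine-rich membrane protein, was called higher (log2 fold change 1.77 ± 0.26 SE, adjusted p = 0.000719), with 18.7, 32.1 and 15.5 CPM and 8.21, 5.71 and 7.34 CPM. The call of the hydrolase gene AT5G51180 rested on 1 library. It had 98.7, 22.7 and 23.4 CPM in replicates 1, 2 and 3 of myb107-2 after 48 h cold, against 16.9, 16.8 and 19.1 CPM at 11 DAP (log2 fold change 1.65 ± 0.53 SE, adjusted p = 0.0447).

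The members that were lowest in the mutant's fit were few. AT3G56230, a BTB/POZ domain protein, was the 1 member called lower, with 1.26, 1.28 and 0.761 CPM in myb107-2 after 48 h cold, against 3.48, 4.53 and 2.92 CPM at 11 DAP (log2 fold change -1.59 ± 0.37 SE, adjusted p = 0.00952). In WT it had 5.47, 8.28 and 4.26 CPM at 11 DAP, 4.35, 4.27 and 3.10 CPM after 6 h cold, 12.5, 9.58 and 18.5 CPM after 48 h cold and 4.41, 4.90 and 6.28 CPM at 13 DAP. Its WT and mutant libraries thus lay on opposite sides of their own 11 DAP libraries. MYB6, an R2R3 MYB factor, had 2.11, 5.71 and 4.02 CPM and 4.57, 5.08 and 5.72 CPM in myb107-2 (log2 fold change -0.23 ± 0.29 SE, adjusted p = 0.61). AT2G24550 had 5.50, 7.14 and 4.81 CPM and 8.46, 7.27 and 5.92 CPM (log2 fold change -0.19 ± 0.22 SE, adjusted p = 0.571), whereas AT2G24760 had 0, 1.98 and 0.137 CPM and 1.32, 0.782 and 2.23 CPM (log2 fold change -0.85 ± 0.81 SE, adjusted p = 0.483). None of these passed the test. The cornichon family gene AT1G12340 was at 0 in all 3 myb107-2 48 h cold libraries and had 0, 1.80 and 0 CPM at 11 DAP, against 1.37, 1.90 and 0.950 CPM in WT after 48 h cold. It shares 44.8% of its 50-base words with other places, and no fold is given.

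The 6 h libraries divided the cold-raised genes further. All 3 WT 6 h libraries were above all 3 WT 11 DAP libraries in 85 members (37.1%), beside 12.2% of 20382 genes with a mean of at least 10 counts, and below them in 4 (1.75%), beside 11.3%. The other 140 overlapped. The comparison shares the 11 DAP libraries that chose the members, so no test was made. Of the 85 members already high at 6 h, 57 (67.1%) were called higher in myb107-2 with a median log2 fold change of 1.46, and of the 140 that overlapped, 67 (47.9%) with a median of 1.02. In 14 members the 6 h mean was at least as high as the 48 h mean, among them CT-BMY, RS40, ATRZ-1A and EHB1. EHB1, a calcium-dependent lipid-binding protein, had 21.2, 23.9 and 20.2 CPM at 11 DAP, 85.3, 61.2 and 59.0 CPM after 6 h cold and 40.6, 59.0 and 58.6 CPM after 48 h cold in WT. It had 45.9, 50.6 and 46.5 CPM after 48 h cold, against 22.8, 19.4 and 25.4 CPM at 11 DAP in myb107-2 (log2 fold change 1.22 ± 0.12 SE, adjusted p = 5.09e-05). It overlaps AT1G70790 on the same strand. AT1G79150 was another of the 14, with 3.12, 4.75 and 3.52 CPM at 11 DAP, 12.1, 13.7 and 10.4 CPM after 6 h cold and 8.86, 8.23 and 9.74 CPM after 48 h cold in WT. In myb107-2, AT1G79150 had 8.60, 9.21 and 11.6 CPM after 48 h cold and 9.97, 8.29 and 8.10 CPM at 11 DAP (log2 fold change 0.28 ± 0.16 SE, adjusted p = 0.236). The mutant's 11 DAP libraries were already above those of WT. At the other end, DMP1, a membrane protein linked to senescence, had 1.53, 2.79 and 1.52 CPM at 11 DAP, 0.970, 1.24 and 0.620 CPM after 6 h cold and 7.12, 7.55 and 10.08 CPM after 48 h cold in WT. Its 6 h libraries lay below those of 11 DAP. Of the protective proteins and flavonol genes 10 of 11 were above at 6 h. Of the 32 transcription factor and signalling members 4 were above and 2 below, and their median 6 h difference in L was 0.02, beside 0.44 for the other 197 members. In the windows of the 85 early members and the 140 that overlapped, AAAATATCT stood in 7 and 4 (8.24% and 2.86%) and CCGAC in 18 each (21.2% and 12.9%). The ACGTG core stood in 42.4% and 44.3% of these windows, and CACGTG in 12.9% and 13.6%.

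Set directly against WT, myb107-2 differed from it in a minority of the members. After 48 h cold, all 3 myb107-2 libraries were below all 3 WT libraries in 65 members (28.4%), beside 10.5% of all genes, and above in 19 (8.30%), beside 7.54%. At 11 DAP they were above WT in 44 (19.2%), beside 15.8%, and below in 16 (6.99%), beside 5.27%. WT 48 h cold and WT 11 DAP libraries were used to choose the members, which favours high values in the one and low values in the other, so these counts carry no test of the genotype.

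The members were spread over the chromosomes, with 66, 44, 38, 32 and 49 on chromosomes 1 to 5, and 217 of them were protein coding. Of these 217, 34.1% had a single exon, beside 16.4% of 19283 expressed protein coding genes, and their median exon length was 1400 bases beside 1759 bases. Product names with a DNA-binding term made up 16.6% of them beside 6.34%, and those with a kinase term 2.76% beside 5.24%. Of all members, 52 overlapped a gene on the opposite strand, among them SBTI1.1, CT-BMY, MPK3, ABI1, SHP1 and AT5G51180, 8 overlapped a gene on the same strand, and 8 shared more than 10% of their 50-base words with other places in the genome. The counts of these genes are less certain. No shares over all genes are given for overlaps and shared words, so they mark a limit and not a trait of the members. Of the other fixed lists, 2 of 11 genes of sugar and raffinose metabolism (CT-BMY and SUS3), 1 of 12 of flavonoid and proanthocyanidin synthesis (FLS1) and 1 of 10 cold shock and RNA-binding proteins (ATRZ-1A) were members. In myb107-2 these lists had 2 of 10, 5 of 12 and 2 of 10 tested genes called higher, and 4 flavonoid genes were called lower. Over all genes tested, 5.5% were called higher and 5.14% lower. No gene of the lists for ribosome biogenesis, fatty acid desaturases, heat shock and chaperones, or defence and jasmonate response was a member. These lists held 9, 8, 7 and 9 genes, while 229 of 20382 genes with a mean of at least 10 counts were members. Their lack of members therefore does not set these roles apart. Members outside the lists had such roles, among them HSFA1E for heat shock, ORA47 and CYP94B1 for jasmonate and the defensin gene PDF2.1. In myb107-2, 2 of 6 tested heat shock and chaperone genes were called higher and 1 lower, 2 of 4 defence and jasmonate genes were called higher, and no gene of the first 2 of these lists reached the fold limit.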

How the data were processed

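The members and all gene lists were chosen with earlier results of these data known. On the Galaxy platform the authors trimmed the reads, mapped them with HISAT2 and used StringTie, and they deposited unnormalized estimated counts for each gene, written as whole numbers. The sources used here do not give versions, the genome build or the strand setting, so TAIR10.1, in which all 37861 identifiers are found, gave the positions. Rows without a nuclear gene (0.454% to 2.13% of a library) were left out, as were 22 genes with dates instead of counts in some files. CPM used the sum of nuclear genes. The 6 myb107-2 libraries were TMM-scaled and compared by the quasi-likelihood test of edgeR 4.0.16 (R 4.3.3) over 20236 genes with at least 60 counts, with Benjamini-Hochberg adjustment. The standard error is that of the log2 fold change. The fit was tested on simulated data. Alternatives were DESeq2 1.42.0, other scalings and filters, more libraries, a replicate block and leaving out each library.

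Genes named by a fixed rule were those with the largest WT 48 h difference (12) or 6 h to 48 h difference (5 at each end), the highest WT 48 h mean CPM (8), the smallest p (6) or lowest fold change (6) in myb107-2, those in a list, and those at the threshold of 1. Other members named were chosen after their values were seen. Shares of counts and the floor cover counting error only.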

Additional observations from a re-analysis of the deposited data

Results flagged for a closer look

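AT3G56230, the BTB/POZ domain gene, and RD26, the NAC factor gene, had their 3 myb107-2 48 h cold libraries all below their 3 myb107-2 11 DAP libraries, while in WT all 3 48 h cold libraries were above the 3 at 11 DAP, as the choice of the genes demanded. The difference in L between 48 h cold and 11 DAP was -1.14 in myb107-2 for AT3G56230 and -0.43 for RD26. The difference between the genotypes was not tested.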

How the results depend on the processing

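Over the other scalings, tools, filters and fits, the number of members called higher in myb107-2 lay between 114 (edgeR's legacy method) and 126 (DESeq2's size factors in edgeR), with 121 for DESeq2 itself and 1 called lower throughout. At the adjusted p alone it was 176. The replicate numbers did not pair the myb107-2 libraries, with correlations of same-numbered deviations of -0.14, 0.03 and -0.01, and with a replicate block 123 members were called higher and 1 lower, with a median of 1.12. Leaving out a library gave 110 to 137 called higher, 1 to 2 called lower and a median log2 fold change of 1.03 to 1.22. The second gene called lower was AT1G12340 without myb107-2 11 DAP replicate 1 or 3, and AT2G24760 without myb107-2 48 h cold replicate 2.

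The membership depended more on the scaling. CPM without ribosomal RNA genes chose 153 genes, 150 of them members. TMM-scaled CPM chose 127 genes, and of the 121 members among them 62 (51.2%) were called higher in myb107-2, with a median of 1.07, an alternative added after seeing the data, as was the rule without WT 13 DAP replicate 1, for which 122 of 217 tested genes were called higher. Leaving out a library of the rule gave 184 to 289 genes, and a pseudocount of 0.5 or 2 CPM in place of 1 gave 274 or 181.

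Of 606 values of named genes under alternatives, 588 kept their direction and side of the threshold, 13 lost their call, 4 gained one and 1 reversed. The reversed value was MYB6, at 0.0094 without myb107-2 48 h cold replicate 1 (range without a library -0.57 to 0.0094). SYP122 fell under the fold limit without myb107-2 48 h cold replicate 2 (0.80), PDF2.1 without myb107-2 11 DAP replicate 3 (0.94), and STZ rose over it without myb107-2 48 h cold replicate 3 (1.07). AT1G21529 lost its call without myb107-2 11 DAP replicate 1 or 48 h cold replicate 3, and AT5G51180 lost its call under most alternatives, with 0.46 without myb107-2 48 h cold replicate 1. The cause was not tested.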

Other observations

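Of the cold-raised genes, 16 lay within 1000 bases of another member, for which no share over all genes is given. PDF2.1 and LCR68, both small cysteine-rich proteins of the defensin type, were called higher in myb107-2, LCR68 with 78.5, 81.5 and 66.6 CPM after 48 h cold and 35.2, 44.1 and 42.9 CPM at 11 DAP (log2 fold change 1.03 ± 0.16 SE, adjusted p = 0.000914). In WT, LCR68 had 56.8, 39 and 36.9 CPM at 11 DAP, 101, 71.2 and 73.3 CPM after 6 h cold, 114, 104 and 95.5 CPM after 48 h cold and 12.7, 29.4 and 23.8 CPM at 13 DAP. The prenyltransferase genes CPT and AT2G23400, which share 15.7% and 13.9% of their 50-base words with other places in the genome, had higher mean CPM in the mutant than in WT after 48 h cold. CPT had 205, 234 and 242 CPM in myb107-2 after 48 h cold, against 161, 175 and 205 CPM in WT after 48 h cold, and AT2G23400 had 37.2, 47.4 and 51.6 CPM, against 14.2, 16.4 and 20.4 CPM in WT. The lowest mutant and highest WT library of CPT were level at these digits, and the libraries of AT2G23400 did not overlap. The calcium-dependent lipid-binding genes EHB1 and AT1G70810 lie side by side but differed at 6 h, where EHB1 had 85.3, 61.2 and 59.0 CPM and AT1G70810 34.0, 28.4 and 25.7 CPM in WT, after 22.4, 20.7 and 30.7 CPM for AT1G70810 at 11 DAP.

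The DUF220 genes AT1G23510, AT1G23520 and AT1G23560 lie close together on chromosome 1, and all were called higher in myb107-2. AT1G23560 had 102, 127 and 151 CPM after 48 h cold, against 32.1, 35.6 and 58.2 CPM at 11 DAP (log2 fold change 1.73 ± 0.20 SE, adjusted p = 0.000154), AT1G23520 had 11.5, 17.3 and 16.1 CPM and 4.69, 3.11 and 8.01 CPM (log2 fold change 1.66 ± 0.26 SE, adjusted p = 0.00098), and AT1G23510 had 4.93, 8.68 and 11.2 CPM and 2.25, 1.90 and 6.33 CPM (log2 fold change 1.42 ± 0.39 SE, adjusted p = 0.0228). ABCG38, a transporter of the pleiotropic drug resistance type, had 28.3, 36.0 and 45.1 CPM in myb107-2 after 48 h cold, against 19.0, 15.5 and 18.8 CPM at 11 DAP (log2 fold change 1.16 ± 0.14 SE, adjusted p = 0.000212).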
